A study of Mus musculus with 9 samples.

Results

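Fkbp5 and the genes of the chaperone complex that holds corticosteroid receptors were followed in RNA from the prefrontal cortex of mice. The 8 genes were chosen by symbol from the 24532 genes listed for every mouse: Fkbp5, Fkbp4, Nr3c1, Nr3c2, Hsp90aa1, Hsp90ab1, Stip1 and Ptges3. All 8 averaged at least 30 reads per mouse and were tested together with the other genes that did, 14370 in all. Libraries of mRNA were made from the total RNA of 9 mice, 1 library per mouse, with 3 mice in each of 3 groups. CT mice were wild-type and unstressed. WT_ST mice were wild-type and were restrained for 6 h a day for 3 weeks. KO_ST mice lacked Fkbp5 (Fkbp5-/-) and were restrained on the same schedule. By the labels, the strain was C57BL/6 and the age 11 weeks in all 3 groups. The methods describe males only, a knockout line backcrossed to C57BL/6J and bred from heterozygous parents, and withdrawal of food and water from the CT mice too during the hours of restraint. Unstressed Fkbp5-/- mice were not analysed here, so the effect of restraint within the knockout could not be separated from that of the genotype. Counts of reads on genes summed to between 43778471 and 61150128 per mouse. The labels do not say whether the 3 mice of a group came from separate litters or cages, and the spread between them is that between these libraries. On caging, the methods state only that mice were housed in a single cage, which does not settle whether each was housed alone.

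Glucocorticoid and mineralocorticoid receptors are transcription factors that wait for hormone in the cytoplasm. There they are folded by Hsp70 and Hsp40, passed to Hsp90 by the adaptor Hop (Stip1), and kept ready to bind hormone by the co-chaperone p23 (Ptges3). The mature complex carries an immunophilin. FKBP51 (Fkbp5) lowers the affinity of the receptor for hormone, and its relative FKBP52 (Fkbp4) links the complex to dynein for transport to the nucleus. Fkbp5 is itself transcribed in response to the activated glucocorticoid receptor, which closes a short feedback loop and makes its mRNA a common readout of stress hormone action in brain and blood. Mineralocorticoid receptors (Nr3c2) bind corticosterone at low hormone levels, and glucocorticoid receptors (Nr3c1) at the higher levels of stress.

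The genes lie on 7 chromosomes of the GRCm38.p6 assembly. Fkbp5 lies on chr17:28398753-28486149 and shares its chromosome with Hsp90ab1 (chr17:45567778-45573261). Fkbp4 lies on chr6:128430103-128438656, Stip1 on chr19:7020696-7040026, Ptges3 on chr10:128058982-128077254, Hsp90aa1 on chr12:110691036-110696395 and Nr3c2 on chr8:76898083-77245012. Promoter sequences from RefSeq were used for 5 of the 8 genes. The 250 bases before the start of Fkbp5, Fkbp4 and Stip1 are shown because these were the 3 members with an unadjusted p under 0.05 between WT_ST and CT. All 3 genes are on the minus strand, and the sequences are written in the direction of transcription, ending at the base before the gene's start.
Fkbp5, chr17:28486150-28486399: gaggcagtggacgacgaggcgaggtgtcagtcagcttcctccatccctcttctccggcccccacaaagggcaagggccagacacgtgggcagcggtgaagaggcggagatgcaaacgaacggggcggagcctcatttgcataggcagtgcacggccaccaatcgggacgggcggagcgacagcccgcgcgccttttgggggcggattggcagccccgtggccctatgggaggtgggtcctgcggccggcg
Fkbp4, chr6:128438657-128438906: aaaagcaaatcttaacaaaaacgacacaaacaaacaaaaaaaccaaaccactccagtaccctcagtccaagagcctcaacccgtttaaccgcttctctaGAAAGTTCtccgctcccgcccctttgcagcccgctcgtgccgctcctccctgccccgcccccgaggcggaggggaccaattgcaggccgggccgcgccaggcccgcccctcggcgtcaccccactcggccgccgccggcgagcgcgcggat
Stip1, chr19:7040027-7040276: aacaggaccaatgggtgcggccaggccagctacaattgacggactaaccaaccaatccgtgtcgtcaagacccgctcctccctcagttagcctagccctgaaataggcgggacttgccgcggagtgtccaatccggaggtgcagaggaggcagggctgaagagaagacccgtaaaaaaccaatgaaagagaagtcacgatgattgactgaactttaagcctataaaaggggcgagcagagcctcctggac
Capitals mark a pair of inverted heat shock units, GAANNTTC or TTCNNGAA, each of which reads the same on both strands. Fkbp4 held 1 such pair, GAAAGTTC, which began 151 bases before the gene's start. Fkbp5, Stip1 and Ptges3 held 0 in this window. The Nr3c2 entry, chr8:76902080-76902329 on the plus strand, lies inside the gene's span and not before its first base, and it held 1 pair (GAACTTTC). Of 32851 mouse promoters of the same length, 12.8% held such a pair. A full glucocorticoid response element, as its inverted repeat, was present in 0 of the 5 windows and in 0.00913% of all promoters. A single unit of it, AGAACA, searched on both strands, was present in 0 of the 5 windows and in 16.1% of all promoters. These are matches of letters within a short window and were not related to the measurements.

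Transcript levels spanned a wide range. Levels are given as FPKM, fragments scaled by transcript length and by library size, as the authors deposited them. They can be compared between genes because they are per length. Hsp90ab1, the constitutive cytosolic Hsp90, had a mean FPKM of 752.8 over the 9 mice and was the 17th most abundant of the tested genes. Hsp90aa1, the inducible form, had a mean FPKM of 375.9. Stip1 followed at 72.9, Ptges3 at 47.6 and Fkbp4 at 45.9. Both receptors and Fkbp5 were less abundant, with means of 14.997 for Nr3c1, 7.07 for Fkbp5 and 4.74 for Nr3c2. In percentiles of the tested genes this placed Hsp90ab1 at 99.9, Nr3c1 at 66.2, Fkbp5 at 45.9 and Nr3c2 at 36.2. The order of neighbouring genes was the same in 9 of 9 mice except for 2 pairs. Ptges3 was above Fkbp4, and Fkbp5 above Nr3c2, in only 6 of 9 mice each. The 3 mice with Fkbp5 below Nr3c2 were those of KO_ST.

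**Figure D1:**
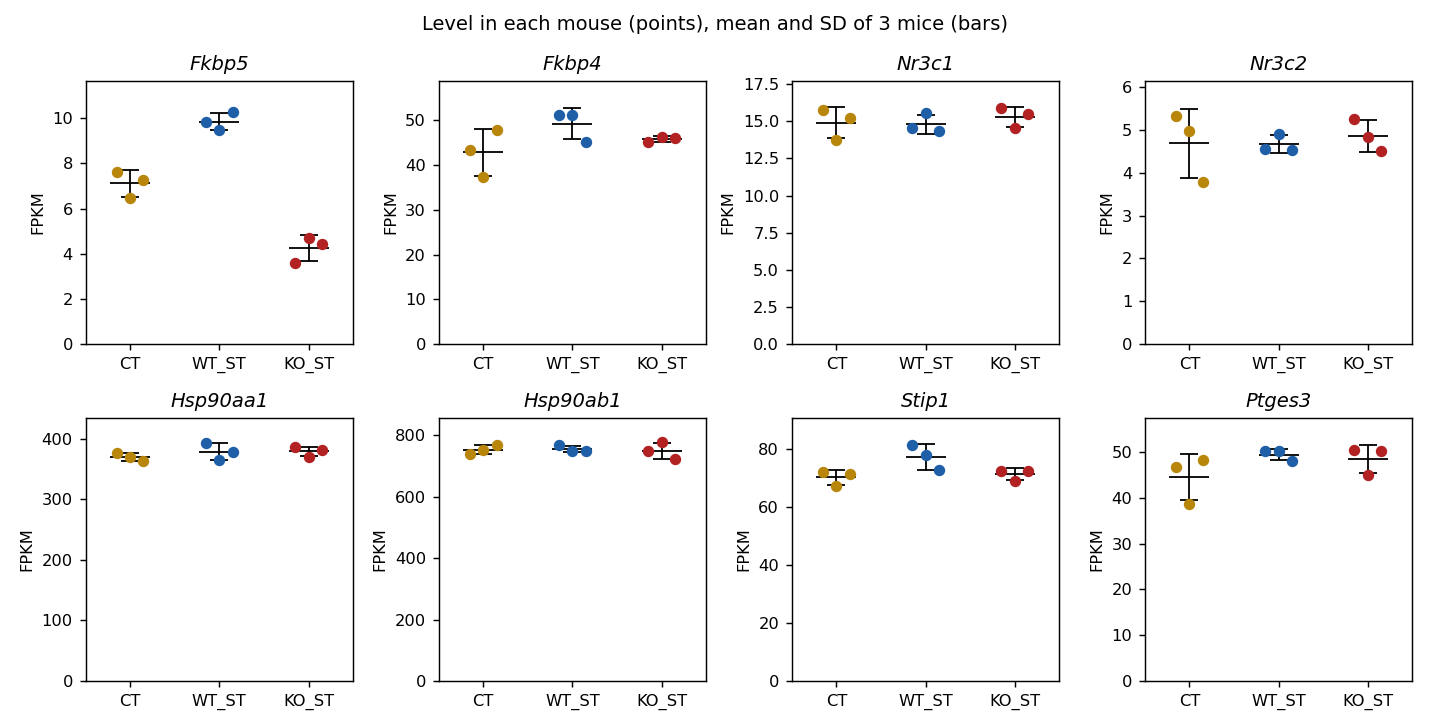
FPKM of the 8 genes (vertical axes, each from 0) in each mouse of the CT, WT_ST and KO_ST groups (points), with the mean and SD of 3 mice (bars). The 3 groups separate for Fkbp5, between 6.46 and 7.61 in CT, 9.47 and 10.25 in WT_ST and 3.59 and 4.69 in KO_ST, and the other panels show groups at similar levels.

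Fkbp5 varied most between mice and Hsp90ab1 least. The highest of the 9 mice was 2.85 times the lowest for Fkbp5, 1.41 times for Nr3c2 and 1.37 times for Fkbp4, against 1.08 times for Hsp90aa1 and 1.07 times for Hsp90ab1. Within groups, the residual SD of quantile-normalized log2(FPKM+1) was 0.0391 for Hsp90ab1, 0.0418 for Hsp90aa1 and 0.0509 for Stip1, below the median of 0.0911 over all tested genes. It was 0.111 for Fkbp5 and 0.145 for Nr3c2, above that median.

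Fkbp5, the immunophilin and targeted gene, was measured in CT at 7.61, 6.46 and 7.28 FPKM, from 1363 to 1851 reads. The WT_ST mice had 9.83, 9.47 and 10.25 FPKM, from 1806 to 1925 reads, and the KO_ST mice 3.59, 4.69 and 4.45 FPKM, from 625 to 907 reads. Every WT_ST mouse was above every CT mouse, and every KO_ST mouse was below both other groups. Means were 7.11 ± 0.594 in CT, 9.85 ± 0.391 in WT_ST and 4.24 ± 0.575 in KO_ST (SD, n = 3). The mean in WT_ST was thus 138% of that in CT, and the mean in KO_ST was 43.1% of that in WT_ST and 59.7% of that in CT.

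The reads left in the knockouts do not show which transcript they came from. The deleted part of the allele is not given in the sources used here, and the count sums reads over the whole gene, so that reads outside the deleted part are still counted. The level in KO_ST therefore cannot by itself check the genotype, nor does it measure the protein. All 3 libraries labelled KO_ST were the lowest of the 9 for the targeted gene.

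Differences were tested with limma on quantile-normalized log2(FPKM+1) between 2 groups at a time, and a gene was called where its fold change was above 1.2 and its p, before adjustment, under 0.05. Fkbp5 was higher in WT_ST than in CT by 0.44 on this log2 scale (95% interval 0.28 to 0.61) and met the criterion. Its adjusted p over all tested genes was 0.267 (limma, Benjamini-Hochberg). In KO_ST against WT_ST its log2 fold change was -1.04 (95% interval -1.25 to -0.84), with an adjusted p of 0.00908 (limma), where 0.153% of all tested genes had an adjusted p under 0.05. Only 0.0348% of the tested genes did in WT_ST against CT, and 0.0626% in KO_ST against CT. Against CT the KO_ST mice were at -0.60 (95% interval -0.83 to -0.37), with an adjusted p of 0.217 (limma). Ranked by p, Fkbp5 was the 20th, 8th and 31st gene of 14370 in these comparisons. Larger fold changes in the same direction were measured for 94 genes in WT_ST against CT, 9 genes in KO_ST against WT_ST and 64 genes in KO_ST against CT. The comparisons share mice, so they are not separate measurements of one effect.

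The adjusted calls depended on the tool and on single mice, but the criterion of p and fold change did not. DESeq2 on the read counts gave an adjusted p of 0.000112 for Fkbp5 in WT_ST against CT and 1.25e-05 in KO_ST against CT, while edgeR gave 0.244 and 0.215. In KO_ST against WT_ST the adjusted p from limma rose to 0.0531 without WT_ST replicate 2.

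Summed markers of some other cells differed between the groups as well. The summed FPKM of 4 microglial markers lay between 71.5 and 86.2 in CT, 53.3 and 62.9 in WT_ST and 27.1 and 62.3 in KO_ST, and the mean of each of the 4 was lower in WT_ST than in CT and lower in KO_ST than in WT_ST. The sum of 4 astrocyte markers was 177 to 204 in CT, 161 to 165 in WT_ST and 154 to 193 in KO_ST, and 2 of the 4 had means below those of CT in WT_ST. Slc1a3 made up most of that sum (122 to 149 in CT, 109 to 110 in WT_ST). The sum of 5 striatal markers was 17.9 to 21.2 in CT, 22.3 to 30.5 in WT_ST and 17.6 to 22.3 in KO_ST, so that it was highest in the group with the highest Fkbp5, and each of the 5 had its highest mean there. The sum of 4 markers of cortical excitatory neurons was 708 to 767, 745 to 815 and 743 to 798, and that of 3 choroid plexus markers was at most 1.06 in any mouse. The sum of 4 endothelial markers overlapped between groups (52.9 to 56.6, 50.0 to 56.9 and 47.4 to 55.7), but its members differed in direction. Cldn5 was 17.8 to 21.6 in CT, 13.2 to 16.3 in WT_ST and 13.4 to 15.3 in KO_ST, and Pecam1 was lower without overlap in both stressed groups too, whereas Ly6c1 was 20.5 to 23.5 in CT, 24.8 to 27.2 in WT_ST and 24.9 to 27.5 in KO_ST. All 5 blood markers had lower means in both stressed groups than in CT, with summed ranges that overlapped widely (82.8 to 775, 85.8 to 499 and 110 to 274). The sums of 4 inhibitory neuron markers and of 4 oligodendrocyte markers overlapped in every comparison. Within the inhibitory sum, however, Gad1 was 72.2 to 86.3 in CT and 87.5 to 92.2 in KO_ST. Gad2 (24.0 to 26.6 against 28.3 to 29.9) and Pvalb (13.0 to 17.2 against 18.1 to 19.5) were also higher in KO_ST without overlap. Sst, which made up most of that sum, overlapped (236 to 310 against 259 to 285). No marker was at 0 in all mice. The part of these cells in the level of Fkbp5 was not tested, and in bulk tissue fewer cells of a type and less RNA per cell cannot be told apart.

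Fkbp4, whose product competes with FKBP51 for the same site on Hsp90, had an FPKM of 43.3, 37.3 and 47.8 in CT, 51.2, 51.1 and 45.2 in WT_ST and 45.1, 46.2 and 46.1 in KO_ST. All 3 groups overlapped. The KO_ST mice lay close together, and the CT mice were the most spread. In WT_ST against CT the log2 difference was 0.20 (95% interval 0.00 to 0.41, adjusted p = 0.635 from limma), a fold change below 1.2 whose p was under 0.05 before adjustment. It passed 1.2 without CT replicate 3, where the log2 difference was 0.27, and was 0.12 without CT replicate 2. Against WT_ST, KO_ST was at -0.10 (95% interval -0.22 to 0.03, adjusted p = 0.899 from limma). With 1 mouse left out this ranged from -0.14 (without WT_ST replicate 3) to -0.07. In KO_ST against CT the difference was 0.11 (95% interval -0.08 to 0.29, adjusted p = 0.687 from limma). With 1 mouse left out it ranged from 0.02 (without CT replicate 2) to 0.18. A rise of Fkbp4 above 1.2-fold in the knockouts lay outside the interval against WT_ST and inside that against CT.

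The ratio of both immunophilins within a mouse does not depend on how libraries are scaled. In CT there were 6.01 ± 0.482 FPKM of Fkbp4 for each FPKM of Fkbp5, in WT_ST 5.003 ± 0.527 and in KO_ST 10.9 ± 1.43 (SD, n = 3). Fkbp5 made up 14.3% of their summed FPKM in CT, 16.7% in WT_ST and 8.47% in KO_ST. The ratio of Fkbp5 to Fkbp4 did not overlap between any of the groups. Its mean log2 difference was 0.27 in WT_ST against CT and -1.12 in KO_ST against WT_ST. These ratios combine the Fkbp5 differences given above with the smaller ones of Fkbp4.

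**Figure D2:**
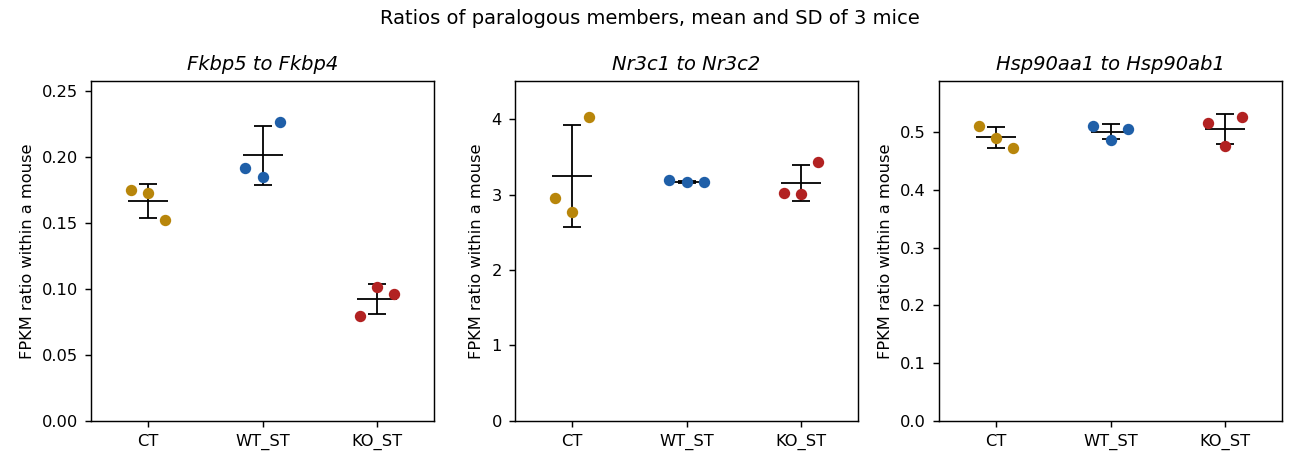
Ratio of the FPKM of related members within each mouse (vertical axes, from 0; points are mice, bars are the mean and SD of 3 mice) in CT, WT_ST and KO_ST. The ratio of Fkbp5 to Fkbp4 separates all 3 groups, whereas those of Nr3c1 to Nr3c2 and Hsp90aa1 to Hsp90ab1 overlap.

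Nr3c1, the glucocorticoid receptor, had an FPKM of 15.7, 13.7 and 15.2 in CT, 14.5, 15.5 and 14.3 in WT_ST and 15.9, 14.5 and 15.5 in KO_ST. The groups overlapped throughout. Its log2 difference was 0.00 in WT_ST against CT (95% interval -0.15 to 0.15) and 0.05 in KO_ST against WT_ST (95% interval -0.07 to 0.18). KO_ST differed from CT by 0.06. The intervals given lie inside a fold change of 1.2 in either direction. With 1 mouse left out, KO_ST differed by 0.03 to 0.09 from WT_ST and by 0.005 to 0.10 from CT.

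Nr3c2, the mineralocorticoid receptor, had an FPKM of 5.32, 4.96 and 3.79 in CT, 4.56, 4.91 and 4.53 in WT_ST and 5.26, 4.83 and 4.51 in KO_ST. CT replicate 3 was the lowest of the 9 mice, and the groups overlapped. The log2 difference was 0.03 in WT_ST against CT with a wide interval (-0.24 to 0.31), 0.05 in KO_ST against WT_ST (-0.12 to 0.22) and 0.08 in KO_ST against CT (-0.21 to 0.37). With 1 mouse left out, the difference of KO_ST from WT_ST lay between 0.003 and 0.10. A rise of 1.2-fold lay inside both intervals against CT, and a fall of 1.2-fold lay outside all 3. There were 3.25 ± 0.678, 3.17 ± 0.0133 and 3.15 ± 0.238 FPKM of Nr3c1 for each FPKM of Nr3c2 in CT, WT_ST and KO_ST (SD, n = 3). The highest ratio, 4.02, was that of CT replicate 3.

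Hsp90aa1, the stress-inducible cytosolic Hsp90, had an FPKM of 376.9, 369.8 and 363.2 in CT, 393.5, 364.7 and 378.0 in WT_ST and 385.4, 370.2 and 381.0 in KO_ST. Hsp90ab1, its constitutive relative, had 738.6, 753.3 and 767.4 in CT, 768.9, 750.1 and 748.5 in WT_ST and 747.9, 777.1 and 723.7 in KO_ST. Neither gene separated any pair of groups. Log2 differences of Hsp90aa1 were 0.03 in WT_ST against CT (95% interval -0.07 to 0.13) and -0.01 in KO_ST against WT_ST (95% interval -0.10 to 0.07). Those of Hsp90ab1 were 0.01 (95% interval -0.08 to 0.11) and -0.01 (95% interval -0.10 to 0.07). In these 2 comparisons they had the narrowest intervals of the members. Between KO_ST and CT the log2 differences were 0.02 for Hsp90aa1 and 0.00 for Hsp90ab1. Both genes have closely similar sequences and copies elsewhere in the genome, and how shared reads were assigned is not given in the sources used here. Their ratio, 0.491 ± 0.0185 in CT, 0.501 ± 0.0133 in WT_ST and 0.506 ± 0.0263 in KO_ST (SD, n = 3), overlapped between groups.

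The summed FPKM of both Hsp90 genes was also set against that of Fkbp5 and of the glucocorticoid receptor. There were 147 to 174 FPKM of Hsp90 for each FPKM of Fkbp5 in CT, 110 to 118 in WT_ST and 245 to 315 in KO_ST. For Nr3c1 the same quantity lay between 70.9 and 81.9 in all 9 mice.

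Stip1 encodes Hop, which bridges Hsp70 and Hsp90. Its FPKM was 72.0, 67.1 and 71.3 in CT, 81.4, 78.0 and 72.5 in WT_ST and 72.5, 69.1 and 72.4 in KO_ST. The WT_ST mice were above all CT mice and above all KO_ST mice, the latter narrowly (72.55 in the lowest WT_ST mouse against 72.51 in the highest KO_ST mouse). The log2 difference was 0.13 in WT_ST against CT (95% interval 0.01 to 0.24, adjusted p = 0.635 from limma) and -0.11 in KO_ST against WT_ST (95% interval -0.21 to -0.01, adjusted p = 0.830 from limma). Both had an unadjusted p under 0.05 with a fold change below 1.2, so Stip1 was called in neither. Both comparisons use the same 3 WT_ST mice. Stip1 in KO_ST differed from CT by 0.02 on the log2 scale (adjusted p = 0.901 from limma).

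Ptges3, the co-chaperone p23, had an FPKM of 46.7, 38.8 and 48.3 in CT, 50.3, 50.2 and 48.0 in WT_ST and 50.4, 45.0 and 50.3 in KO_ST. CT replicate 2 was the lowest, as it was for Fkbp4. The log2 difference was 0.16 in WT_ST against CT (95% interval -0.02 to 0.34, adjusted p = 0.664 from limma), -0.02 in KO_ST against WT_ST (95% interval -0.13 to 0.09) and 0.13 in KO_ST against CT (95% interval -0.06 to 0.33). Without CT replicate 2 the differences from CT were 0.07 in WT_ST and 0.04 in KO_ST. On the quantile-normalized scale WT_ST and CT did not overlap, but on FPKM as deposited they did. Ptges3 has closely similar copies in the genome, and its value may include their reads.

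**Figure D3:**
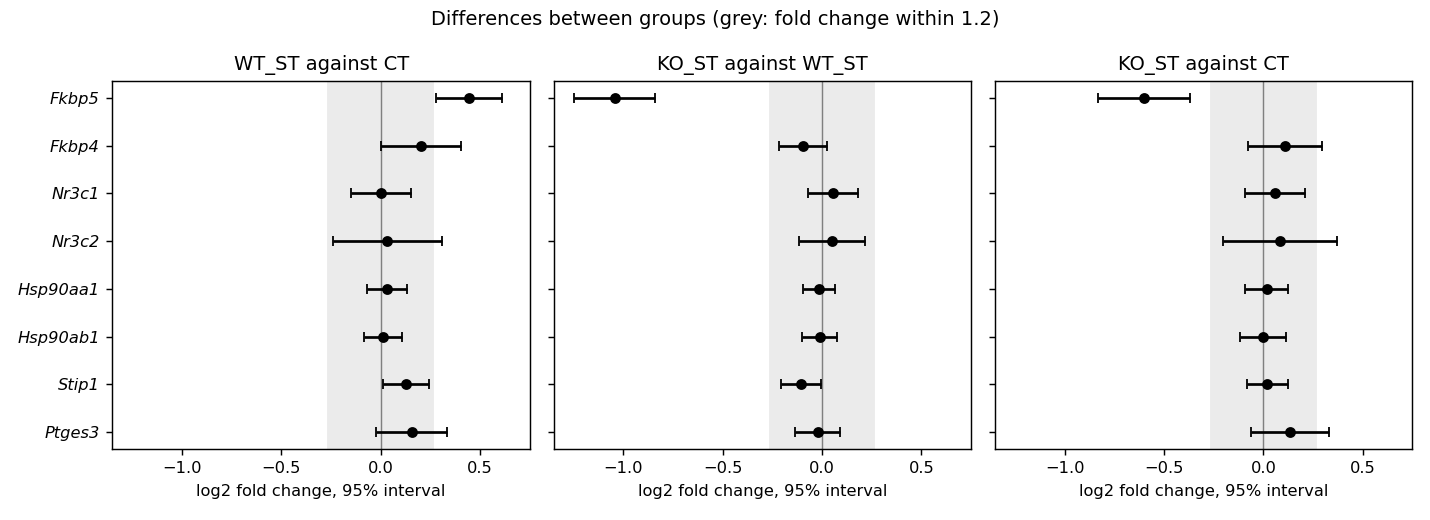
Log2 fold change of each member (points) with its 95% interval (bars) in WT_ST against CT, KO_ST against WT_ST and KO_ST against CT, on quantile-normalized log2(FPKM+1). Grey marks a fold change within 1.2, and only the interval of Fkbp5 lies wholly outside it, at 0.44, -1.04 and -0.60.

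In each comparison, 1 of the 8 members was called, and this was Fkbp5. It was higher in WT_ST than in CT, where 2.47% of all tested genes were called in either direction and 1.16% were called higher. It was lower in KO_ST than in WT_ST, where 2.0% were called and 1.05% were called lower, and lower in KO_ST than in CT, where 3.56% were called and 2.03% were called lower. Mice of both groups did not overlap for 3 of 8 members in WT_ST against CT, namely Fkbp5, Stip1 and Ptges3, against 14.0% of all tested genes. They did not overlap for Fkbp5 and Stip1 in KO_ST against WT_ST (11.0% of all tested genes) and for Fkbp5 alone in KO_ST against CT (15.8%).

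Beside Fkbp5, the other 7 members showed small differences. In WT_ST against CT all 7 had a log2 difference above 0, with a median of 0.03, where 51.3% of all tested genes were above 0. The direction of Nr3c1 and Nr3c2 in this count turned with edgeR and DESeq2 on the read counts, and that of Nr3c1 also without quantile normalization. Between KO_ST and WT_ST 2 of 7 were above 0 (median -0.01, 49.3% of all tested genes above 0), and in KO_ST against CT 6 of 7 (median 0.06, 51.0% of all tested genes above 0). The count in KO_ST against WT_ST turned for Hsp90aa1 with edgeR, DESeq2 and no quantile normalization and for Hsp90ab1 with DESeq2, and that in KO_ST against CT for Hsp90ab1 with both. Leaving out 1 mouse also turned directions, for Nr3c1, Nr3c2 and Hsp90ab1 in WT_ST against CT. It did so for Hsp90ab1 and Ptges3 in KO_ST against WT_ST, and for Nr3c2, Hsp90aa1, Hsp90ab1 and Stip1 in KO_ST against CT.

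The wider Hsp90 machinery was examined as a list of 24 other chaperones and co-chaperones, all of which were tested. Of these, 0 were called in any of the 3 comparisons by limma, edgeR or DESeq2. In WT_ST against CT 4 had an unadjusted p under 0.05, all higher, where 7.86% of all tested genes passed that p in either direction and 3.92% were higher. They were St13 (Hip, which holds Hsp70 in its substrate-bound state) at a log2 difference of 0.13, Trap1 (mitochondrial Hsp90) at 0.10, Chordc1 (an Hsp90-binding co-chaperone) at 0.19 and Ppid (cyclophilin 40, another immunophilin of receptor complexes) at 0.12, each with an adjusted p of 0.635 from limma. Of the 24, 18 were above 0, with a median of 0.05. Without CT replicate 2 the difference of Chordc1 was 0.12.

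In KO_ST the gene of this list with the smallest p against both other groups was Dnajb1, the Hsp40 that delivers clients to Hsp70. Its FPKM was 25.0, 23.3 and 22.8 in CT, 24.0, 22.7 and 24.3 in WT_ST and 20.6, 20.9 and 21.3 in KO_ST. All 3 KO_ST mice were below all other mice. Groups did not overlap for 3 of the 24 in KO_ST against WT_ST, where 11.0% of all tested genes did not. In KO_ST against CT it was 5 of the 24, where it was 15.8% of all tested genes. The log2 difference of Dnajb1 was -0.15 against WT_ST (adjusted p = 0.690 from limma) and -0.15 against CT (adjusted p = 0.499 from limma), a fold change below 1.2. Hsp90b1, the Hsp90 of the endoplasmic reticulum, was at -0.14 in KO_ST against WT_ST (adjusted p = 0.701 from limma), and its FPKM of 109, 103 and 113 in KO_ST lay below the 124, 121 and 117 of WT_ST. Nudc, an Hsp90 co-chaperone, was at -0.16 in KO_ST against CT (adjusted p = 0.501 from limma). For Nudc, too, all 3 KO_ST mice were below all other mice. The next smallest p belonged to Ppid at -0.10 and Nudc at -0.08 in KO_ST against WT_ST, and to Hsp90b1 at -0.11 and the mitochondrial import co-chaperone Tomm34 at 0.08 in KO_ST against CT. Without CT replicate 3 the differences from CT were -0.10 for Nudc and -0.06 for Hsp90b1, and without KO_ST replicate 2 that of Ppid from WT_ST was -0.06. In KO_ST against WT_ST 2 of the 24 had an unadjusted p under 0.05, both lower, where 5.82% of all tested genes passed it and 3.15% were lower. Against CT it was again 2 of 24, both lower, where 9.46% of all tested genes passed it and 4.98% were lower. Of the 24, 8 were above 0 against WT_ST and 17 against CT.

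Hormone conversion and export, receptor coregulators and other steroid receptors made up a second list of 17 genes, of which 16 were tested. Hsd11b2, which inactivates corticosterone, averaged 0.67 reads and was left out. Of the 16, 0 were called in any comparison by limma, edgeR or DESeq2. Pgr, the progesterone receptor, was the only one with an unadjusted p under 0.05 in WT_ST against CT, at a log2 difference of 0.19 (adjusted p = 0.635 from limma). That count of 1 of 16 is near the 7.86% of all tested genes. In the other comparisons 0 of 16 passed that p, where 5.82% (KO_ST against WT_ST) and 9.46% (KO_ST against CT) of all tested genes did. Among those with the next smallest p in WT_ST against CT were the drug and steroid exporter Abcb1a at 0.16 and the Mediator subunit Med1 at -0.16. For KO_ST against WT_ST Med1 was at 0.12 and the coactivator Ncoa2 at 0.10. For KO_ST against CT Abcb1a was at 0.17, Pgr at 0.16, Ncoa2 at 0.09 and Hsd11b1, which regenerates corticosterone, at -0.09. Several of these values moved by more than 1.5 times when 1 mouse was left out. Against CT, KO_ST ranged from 0.09 (without KO_ST replicate 3) to 0.32 (without KO_ST replicate 1) for Abcb1a, which was 0.11 without CT replicate 2 and 0.12 without KO_ST replicate 2. Ncoa2 ranged there from 0.03 (without CT replicate 3) to 0.14 (without CT replicate 1), with 0.04 without KO_ST replicate 2, and Hsd11b1 from -0.15 (without CT replicate 1) to -0.02 (without CT replicate 2), with -0.04 without KO_ST replicate 2. Against WT_ST, Ncoa2 was at 0.04 without WT_ST replicate 1 and 0.05 without KO_ST replicate 2, and Med1 at 0.07 without WT_ST replicate 3 and 0.19 without KO_ST replicate 3. Abcb1a in WT_ST against CT was at 0.10 without CT replicate 2. Log2 differences above 0 were measured for 8, 10 and 11 of the 16 in the order WT_ST against CT, KO_ST against WT_ST and KO_ST against CT.

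**Figure D4:**
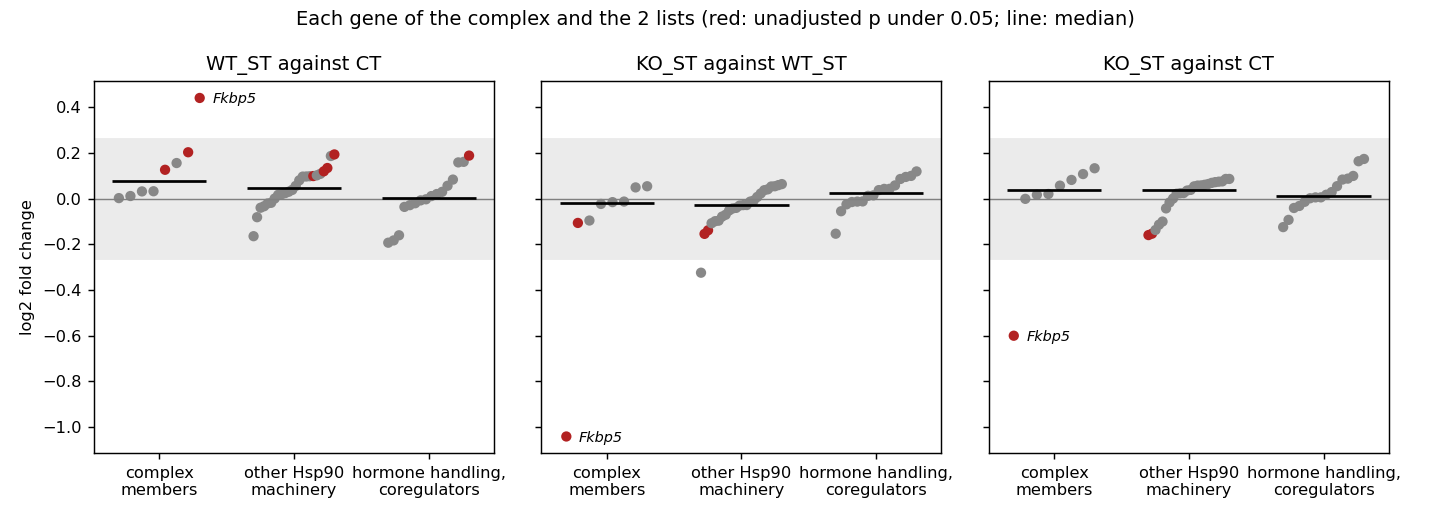
Log2 fold change of every gene (points) of the 8 complex members, the 24 other genes of the Hsp90 machinery and the 16 tested genes of hormone handling and coregulation, in the 3 comparisons, with black lines at the medians. Red points had an unadjusted p under 0.05 and grey shading marks a fold change within 1.2, outside which Fkbp5 is the only red point.

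Whether members varied together from mouse to mouse was examined for the 21 pairs of the 7 members other than Fkbp5, the gene targeted in KO_ST. Of the 21 correlations over 9 mice, 12 were positive, with a median Pearson r of 0.135 and a range of -0.529 to 0.822. No pair reached an adjusted p under 0.05, and 4 pairs had a p under 0.05 before adjustment. The largest r over the pooled mice was that of Fkbp4 with Ptges3, at r = 0.822 (exact permutation test, two-sided, p = 0.0220, adjusted p = 0.183) and Spearman's rho = 0.367 (exact permutation test, p = 0.336, adjusted p = 0.628). Without the 2 mice farthest from the median of Fkbp4, CT replicate 2 and WT_ST replicate 2, r was 0.202. The relation thus rested on those mice, and without CT replicate 2 alone r was 0.356. On deviations from the group means it was 0.732 (exact permutation within groups, p = 0.130, adjusted p = 0.302), below that of Nr3c1 with Ptges3 (r = 0.867, p = 0.0370, adjusted p = 0.194), and again no pair reached an adjusted p under 0.05. The other 3 pairs with such a p are named after their values were seen. Fkbp4 with Stip1 had r = 0.802 (exact permutation p = 0.00861, adjusted p = 0.181) and rho = 0.50 (exact permutation p = 0.178, adjusted p = 0.495), with r = 0.599 without the same 2 mice and 0.678 on deviations from the group means. Stip1 with Ptges3 had r = 0.696 (exact permutation p = 0.0349, adjusted p = 0.183) and rho = 0.533 (exact permutation p = 0.148, adjusted p = 0.495), with r = 0.864 without WT_ST replicates 1 and 2. Nr3c1 with Ptges3 had r = 0.717 (exact permutation p = 0.0264, adjusted p = 0.183) and rho = 0.550 (exact permutation p = 0.133, adjusted p = 0.495), with r = 0.143 without CT replicate 2 and KO_ST replicate 1. A pooled correlation with Fkbp4 as strong as that of Ptges3 was found for 1.14% of all tested genes.

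Genes whose levels followed Fkbp5 most closely over the 9 mice were Fam184a (r = 0.948), the exocyst subunit Exoc7 (r = 0.946), the chromatin remodelling subunit Smarce1 (r = 0.939), Trim34a (r = 0.932) and Ergic1 (r = 0.914). These r are a description, since the 9 points share the groups that differ in Fkbp5. All 5 genes had their highest group mean in WT_ST and their lowest in KO_ST, over a narrower range than Fkbp5. That order largely follows from picking them by their r with Fkbp5. Trim34a was low throughout, at 0.325 to 0.626 FPKM. For example, Smarce1 averaged 16.3 FPKM in WT_ST against 15.4 in CT and 13.3 in KO_ST, and Exoc7 averaged 26.0 against 24.3 and 22.7. The genes most like Nr3c1 were Nme4 (r = 0.966), Ccnc (r = 0.929) and Dexi (r = 0.906), and those most like Hsp90aa1 were Fam131a (r = 0.958), C1ql3 (r = 0.942) and Dysf (r = 0.940).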

How the data were processed

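RNA-seq of the prefrontal cortex of 9 mice was used, 1 library per mouse, grouped by the labels into CT, WT_ST and KO_ST (3 each). Libraries were stranded mRNA libraries by the labels. The submitters' processing notes name HISAT2 2.1.0, Bowtie2 2.3.4.1 and StringTie 1.3.4d with the mouse build mm10. Whether counting used strand is not given in the sources used here. The authors deposited raw read counts per gene and FPKM values, scaled for length and library but not quantile normalized.

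FPKM were taken as log2(FPKM+1), quantile normalized over the 9 mice and tested with limma 3.58.1 (trend, R 4.3.3) in the 2 groups compared, over the 14370 genes averaging at least 30 reads. Fold changes on this scale understate those of genes of low FPKM. Calls needed a fold change above 1.2 with p under 0.05 before adjustment. Adjusted p-values are Benjamini-Hochberg over all tested genes. Intervals are 95% intervals of limma. Alternatives were DESeq2 1.42.0 and edgeR 4.0.16, run on the counts of reads, another pseudocount, other filters, no quantile normalization, an unmoderated test, all 9 mice in one fit, a replicate block and leaving out each mouse. The scripts were tested on simulated data.

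The members and lists were chosen with earlier results of these data known. Named list genes are those called or, where none was, the 4 with the smallest p in a comparison, of which some are not reported here. Most alike genes are the 5 with the largest Pearson r with Fkbp5 and the 3 each with Nr3c1 and Hsp90aa1. Positions and promoters come from RefSeq on GRCm38.p6, and no protein sequences were used.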

Additional observations from a re-analysis of the deposited data

How the results depend on the processing

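Fkbp5 kept its direction and was called in all 3 comparisons under all 45 alternatives. Its log2 fold change with 1 mouse left out lay between 0.39 and 0.49 in WT_ST against CT, -1.11 and -0.95 in KO_ST against WT_ST and -0.67 and -0.51 in KO_ST against CT. Its adjusted p over the alternatives ranged from 0.000112 to 0.783, from 8.49e-24 to 0.251 and from 1.25e-05 to 0.538 in the same order. In KO_ST against WT_ST the adjusted p was over 0.05 in 4 of these: 0.0731 without the filter on reads, 0.251 with the unmoderated test, 0.0921 with the replicate block and 0.0531 without WT_ST replicate 2.

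On average, mice with the same replicate number did not deviate together from their group means (mean r = -0.0101, against 0.00494 for different numbers). Single r ranged from -0.259 to 0.234 for the same number and from -0.266 to 0.190 for different numbers. For replicates 1, 2 and 3, r was -0.0450, 0.234 and 0.161 between CT and KO_ST. Between WT_ST and KO_ST it was -0.0551, -0.105 and -0.259. The mean alone does not settle whether the numbers pair mice of 2 groups. With the replicate number as a block, Fkbp5 stayed at log2 fold changes of 0.44, -1.04 and -0.60, and 399, 279 and 562 of all tested genes were called in place of 355, 287 and 512. The block changed no call of a member.

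Of 312 alternatives for the other members, 287 kept direction and call, 24 turned the direction, to values of at most 0.0971 in size, and 1 added a call. That call was Fkbp4 in WT_ST against CT, so that 1 to 2 members were called there with 1 mouse left out. Directions turned as follows. In WT_ST against CT Nr3c1 was at -0.0069 without quantile normalization, -0.00052 with edgeR and -0.00080 with DESeq2, and Nr3c2 at -0.0012 with edgeR and -0.0015 with DESeq2. In KO_ST against WT_ST Hsp90aa1 was at 0.0011 without quantile normalization, 0.011 with edgeR and 0.015 with DESeq2, and Hsp90ab1 at 0.0030 with DESeq2. In KO_ST against CT Hsp90ab1 was at 0.016 with edgeR and 0.015 with DESeq2. With 1 mouse left out, values ranged from -0.050 to 0.044 for Nr3c1, -0.097 to 0.12 for Nr3c2 and -0.0096 to 0.027 for Hsp90ab1 in WT_ST against CT. They ranged from -0.028 to 0.012 for Hsp90ab1 and -0.047 to 0.023 for Ptges3 in KO_ST against WT_ST. In KO_ST against CT they ranged from -0.047 to 0.17 for Nr3c2, -0.011 to 0.034 for Hsp90aa1, -0.015 to 0.024 for Hsp90ab1 and -0.0078 to 0.047 for Stip1.

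The hormone list had 0 to 1 called gene in KO_ST against CT with 1 mouse left out, which was Abcb1a without KO_ST replicate 1 (log2 fold change 0.32). Counts of all called genes ranged from 164 to 552, 118 to 477 and 248 to 739. Levels as CPM, which are not per length, put the members at percentiles of 53.7 (Fkbp5), 83.6 (Fkbp4), 82.7 (Nr3c1), 45.3 (Nr3c2), 99.5 (Hsp90aa1), 90.3 (Stip1) and 82.4 (Ptges3). That of Hsp90ab1 stayed between 99.87 and 99.90 with 1 mouse left out. With a mean FPKM of at least 5, Nr3c2 was not tested. With 3 mice a group, differences smaller than about the distance from an estimate to the end of its interval were not detectable. Where a value moved, the cause was not tested.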

Other observations

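Chosen after their values were seen, 2 co-chaperones of the list had single mice apart from the rest. Ttc4, an Hsp90 co-chaperone, had an FPKM of 10.8 in CT replicate 1 and 9.18 in KO_ST replicate 3, against 18.2 to 20.9 in the other 7 mice. Ppp5c, the phosphatase of receptor complexes, had an FPKM of 109 in CT replicate 2, against 69.4 to 79.5 in the other 8 mice. Neither gene was called in any comparison.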
